A study of Nasturtium officinale with 24 samples.

Results

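Stems and petioles (the stalks that carry the leaf blades) of watercress (Nasturtium officinale) were compared while both were under water. The comparison used the 6 libraries from submerged stems and the 6 from submerged petioles, 12 of the 24 libraries in the series, chosen by their titles, with the day as a covariate. All plants were about 3 weeks old and grew at 23 °C with 8 h of light and 16 h of darkness. Submergence was complete and began 2 h after lights on, controls stood in air, and each sample pooled the tissue of 5 plants harvested after 1 day or 2 days. Each of the 4 groups under water, stem or petiole at 1 day or at 2 days, had 3 libraries. The 12 libraries from air form the matching comparison without submergence. The labels do not say whether equal replicate numbers of stem and petiole mark the same plants, or whether internodes, nodes or shoot tips were separated. In bulk tissue fewer cells of a type and less RNA per cell cannot be told apart.

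Semi-aquatic plants that are flooded can escape by growing toward the surface, and the title of the series names stem elongation as the form this takes in watercress. In other species such growth is known to involve ethylene that is trapped in submerged organs, a fall in abscisic acid, gibberellin action and loosening of cell walls. Stem and petiole are both elongated axes with vascular strands, but a petiole belongs to a leaf, whereas a stem bears nodes and ends in the shoot apex. Comparing them under water asks which transcripts separate the organs while both are submerged.

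Transcripts were counted on 80741 assembled contigs of 201 to 12603 bases. The deposited tables name each contig by an accession-like identifier only and pair none with a gene, so no role is given to any of them, markers of stem or petiole tissue were not looked up, and no sequence is shown. Several contigs can come from 1 gene, and the counting program divides reads between similar contigs, so a contig is not a gene and close relatives share reads. Library totals under water ran from 19946852 to 48928331 estimated counts. After the filter on low counts 51623 contigs were tested, and they held at least 99.88% of the counts of each library. A contig is called when edgeR's quasi-likelihood test gives a Benjamini-Hochberg adjusted p under 0.05 over all contigs tested.

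Tissue was the main axis among the submerged libraries. The first principal component of log2 CPM (counts scaled to a common library total) held 28.2% of the variance, and the 6 stem libraries lay close together on it, from 83.4 to 94.8. Petioles were spread more widely, from -134.8 to 9.28. The petiole library at 9.28 was replicate 1 at 1 day, and the other petiole libraries of that day lay at -69.2 and -119.5. The second component, with 12.3%, separated the days. All 6 libraries at 1 day were below 0 and all 6 at 2 days above 0.

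**Figure D1:**
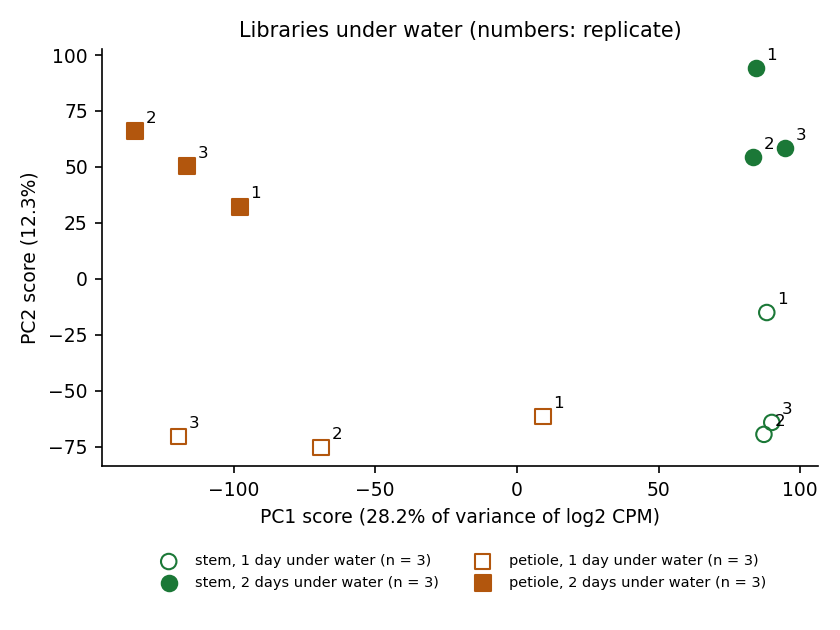
Scores of the 12 libraries under water on the first 2 principal components of log2 CPM over 51623 contigs, with stems as circles, petioles as squares, open symbols for 1 day, filled symbols for 2 days, and the replicate number beside each point. Stems sit together at the right, while replicate 1 of petioles at 1 day, at 9.28 on the first axis, lies between the other petioles and the stems.

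That petiole library also had counts for contigs otherwise found in stems. For 32 contigs, at least 10 counts were found in each stem library and at most 3 counts in each of the other 5 petiole libraries under water. Replicate 1 of petioles at 1 day had over 3 counts for 17 of them, though 711 of its 986 counts came from 1 contig. The low values of the other 5 are fixed by this choice. When each of those 5 was left out in the same way, 16 to 23 contigs met the limits in place of 32, and with all 6 petiole libraries 15 did. These contigs were looked for after the position of the library was seen. How far a share of stem tissue, or other features of that sample, contributed was not tested, and the main counts are given with and without it. Replicates of petioles varied more in general. The median SD of log2 CPM between replicates was 0.225 in petioles at 1 day and 0.177 at 2 days, against 0.139 and 0.146 in stems, over the 18021 contigs whose mean log2 CPM was 3 or more.

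More than 1 contig in 4 differed between submerged stem and petiole, mostly by less than 2-fold. Of the 51623 contigs tested, 6526 were higher in stem (12.6%) and 7835 were higher in petiole (15.2%), together 27.8%. A difference of 2-fold or more was found for 1850 of those higher in stem (3.58% of all tested) and 3001 of those higher in petiole (5.81%). Without replicate 1 of petioles at 1 day these counts were 3156 and 3434, and with library totals alone they were 2334 and 2389, so the excess of 2-fold differences toward petiole was small in both. These counts put the limit on fitted values. A test against a bound of 2-fold, with all 12 libraries and the usual scaling, called 334 contigs toward stem and 612 toward petiole. Differences of 8-fold or more were about as frequent on both sides, 208 toward stem (0.403%) and 214 toward petiole (0.415%). The median size of a called difference was 0.69 on the log2 scale toward stem and 0.84 toward petiole. Without replicate 1 of petioles at 1 day the counts were 8944 and 8962. The balance between the sides depended on scaling, since library totals alone gave 8491 contigs higher in stem and 6215 higher in petiole, 57.7% toward stem against 45.4%.

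Complete separation of the tissues was less frequent than a called difference. For 2205 contigs (4.27%) each of the 6 stem libraries lay above each of the 6 petiole libraries, and for 3459 contigs (6.7%) the reverse held, together 11%. All but 40 and 46 of these were also called, which their selection on the same libraries makes likely. With library totals alone the larger side turned, with 3209 contigs toward stem and 2648 toward petiole. Without replicate 1 of petioles at 1 day the numbers were 5537 and 5048.

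The excess toward petiole was greatest among the most abundant contigs. Of 139 contigs with a mean log2 CPM of 9 or more, 70 were higher in petiole and 15 in stem. At least 2-fold differences among them numbered 19 and 2. In the class from 6 to 9, 697 of 2347 contigs were higher in petiole and 609 in stem, and from 3 to 6 the numbers were 3495 and 3097 of 15535. With library totals alone, an alternative added after the data were seen, the most abundant class still had 68 contigs higher in petiole and 24 in stem, while the class from 6 to 9 turned to 598 and 780 and the class from 3 to 6 to 2707 and 4205. Without replicate 1 of petioles at 1 day the numbers higher in petiole and in stem were 80 and 17 in the most abundant class, 868 and 648 from 6 to 9, and 4066 and 3911 from 3 to 6. With all libraries and the usual scaling, 2747 of 19873 contigs from 0 to 3 were higher in petiole and 2071 in stem. Below a mean log2 CPM of 0, where counts are few, 11.4% of contigs were called.

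**Figure D2:**
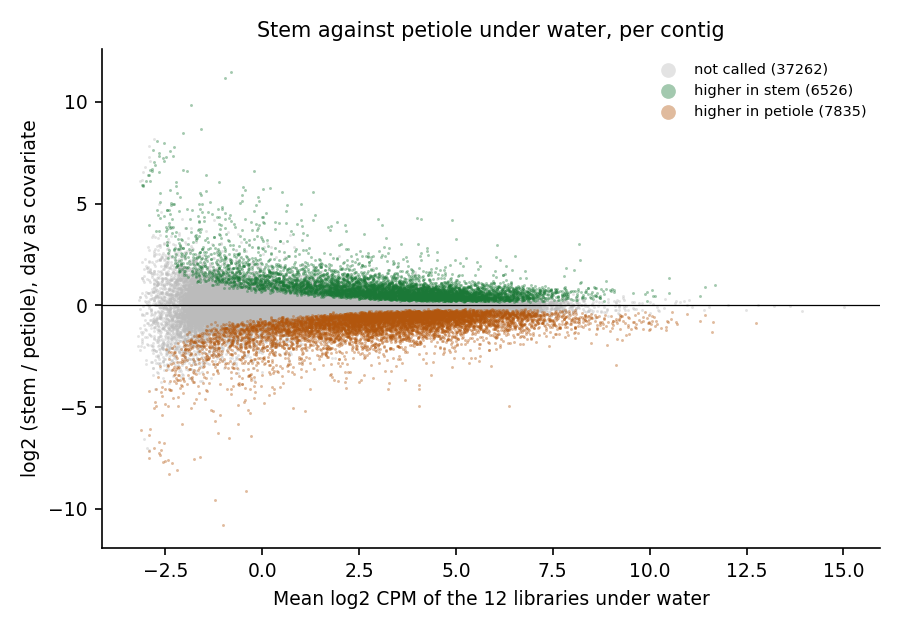
Fitted log2 difference of stem over petiole under water (vertical axis, positive means higher in stem) against mean log2 CPM over the 12 libraries (horizontal axis), 1 point per contig. Called contigs are coloured, 6526 higher in stem and 7835 higher in petiole, and at the right edge the coloured points lie mostly below 0.

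Shares of the transcript pool are given in TPM (a level adjusted for contig length, summing to the same total in each library). All contigs called higher in petiole, at any fold, held 27.38% to 36.33% of TPM in petiole libraries and 19.88% to 22.82% in stem libraries. All those called higher in stem held 22.35% to 24.58% in stems and 10.92% to 16.99% in petioles. The part with larger differences was smaller. The contigs called at least 2-fold higher in petiole held 7.15% to 10.4% of all TPM in the petiole libraries and 3.76% to 4.43% in the stem libraries. Those called at least 2-fold higher in stem held 4.19% to 5.40% in stems and 1.49% to 2.04% in petioles. In both of these 2-fold sets the petiole library nearest to the stems was replicate 1 at 1 day, at 7.15% and 2.04%. These shares describe contigs selected on the same libraries and are no test. For 3 measures that did not use the calls, the difference between the tissues did not pass the test. The 100 most abundant contigs of a library held 29.1% ± 2.89 of its TPM in stems and 31.7% ± 2.40 in petioles (SD, n = 6). Permuting the tissues within days gave p = 0.12 (exact, two-sided), and 0.165 after adjustment over the 3 measures, where the smallest p possible was 0.005. The number of most abundant contigs that together held 50% of TPM was 972 ± 208 in stems and 792 ± 161 in petioles (SD, n = 6; exact permutation p = 0.075, adjusted 0.165). At 2 days it was 1130, 1215 and 1073 in stems, above the 823, 621 and 1056 of petioles, whereas at 1 day the tissues overlapped. The number of contigs with at least 1 TPM was 44429 ± 760.4 in stems and 43558 ± 1097 in petioles (SD, n = 6; exact permutation p = 0.165, adjusted 0.165).

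Among contigs whose mean log2 CPM was 3 or more, those called had a median length of 1456 bases when higher in stem, 1378 bases when higher in petiole and 1557 bases when not called. Neighbouring identifiers tended to go together. Among contigs whose next number was also tested, 29.1% of those following a contig higher in stem were themselves higher in stem and 8.07% higher in petiole. After a contig higher in petiole, 35.1% were higher in petiole and 6.68% in stem. After a contig that was not called these shares were 12.7% and 10.99%. How many separate transcripts the counts of contigs stand for was not measured.

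Among contigs whose mean log2 CPM was 3 or more, the largest differences toward stem without overlap belonged to a pair of contigs with nearby numbers. GEMC01049855.1 (1773 bases) had 69.3, 64.7 and 95.5 CPM in stems at 1 day, and 105, 69.7 and 87.7 CPM a day later. In petioles it had 5.08, 12.02 and 2.47 CPM and then 5.05, 0.434 and 2.19 CPM. Every stem library was above every petiole library, and the petiole values spread widely among themselves. Its fitted log2 difference reached 4.27 ± 0.52 (SE; edgeR, adjusted p = 0.00012). For GEMC01049857.1 (1972 bases) the stem libraries held 92.9, 61.4 and 77.6 CPM at 1 day and 98.4, 89.6 and 112 CPM at 2 days, and the petiole libraries 10.996, 8.03 and 1.45, then 5.17, 0.513 and 2.94 CPM. Its log2 difference was 4.25 ± 0.55 (edgeR, adjusted p = 0.00017). Both contigs were higher in stem in air too, with log2 differences of 2.97 ± 0.59 and 3.68 ± 0.44 (edgeR, adjusted p = 0.0037 and 8.7e-05), and their differences under water and in air were not told apart (edgeR, adjusted p = 0.51 and 0.8).

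Toward petiole the leading contigs were further apart relative to their errors. GEMC01015786.1 (975 bases) held 285, 444 and 525 CPM in petioles at 1 day and then, at 2 days, 402, 756 and 434 CPM. Stems held 17.9, 14.2 and 12.1 CPM, then 13.7, 19.3 and 13.1 CPM. The lowest petiole library thus lay far above the highest stem library. The log2 difference of stem over petiole was -4.97 ± 0.23 (SE; edgeR, adjusted p = 7.1e-07). By level per length it ranked 175 among all contigs in submerged petioles, at 439 ± 131 TPM (SD, n = 6), and 9777 in submerged stems, at 15.2 ± 3.28 TPM.

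GEMC01006994.1 (1522 bases) was found at 76.6, 102 and 104 CPM in petioles at 1 day and 70.6, 121 and 73.7 CPM at 2 days. In stems it was at 3.55, 3.39 and 3.15 CPM and at 2.94, 2.95 and 1.92 CPM. The log2 difference was -4.95 ± 0.19 (edgeR, adjusted p = 2.2e-07). Unlike GEMC01015786.1 it had the opposite order in air. There stems held 1.11 to 3.14 CPM and petioles 0.117 to 0.833 CPM, without overlap, and the log2 difference was 2.1 ± 0.4 (edgeR, adjusted p = 0.003). The change of the tissue difference between air and water was -7.10 ± 0.37 (edgeR, adjusted p = 2.9e-09). The contig was chosen by its difference under water, which is part of this change, so that p-value is no separate support.

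**Figure D3:**
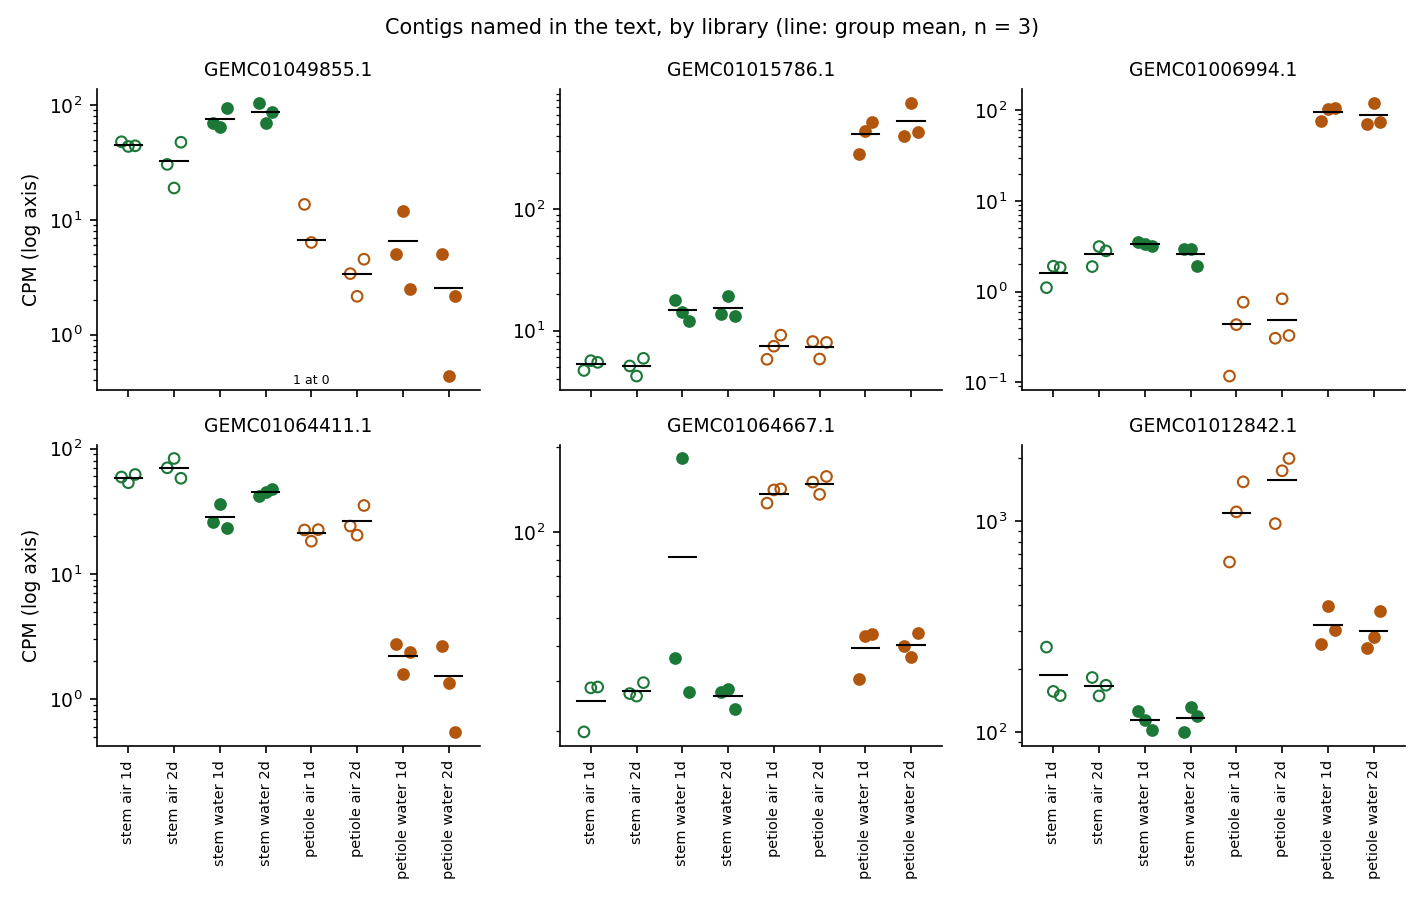
CPM of 6 contigs in each of the 24 libraries on log axes, with stems in green, petioles in brown, open symbols for air, filled symbols for water and a line at each group mean (n = 3). GEMC01015786.1 and GEMC01006994.1 are high in submerged petioles alone among the 4 combinations of tissue and treatment, whereas GEMC01049855.1 is high in stems in air and under water.

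The most abundant of the called contigs with a fitted difference of at least 2-fold showed smaller ratios at far higher levels. GEMC01052508.1 (756 bases) ranked 10 by mean TPM in submerged stems, at 6445 ± 934 TPM, and stood at 2968 ± 443 TPM in petioles (SD, n = 6). Stem libraries held 5257, 4470 and 5544 CPM at 1 day and 3615, 3841 and 5153 CPM at 2 days, all above the petiole range of 2054 to 2756 CPM. The log2 difference was 1.01 ± 0.12 (edgeR, adjusted p = 9.8e-05). GEMC01018687.1 (683 bases) was at 1806 to 3043 CPM in stems and at 705 to 1160 CPM in petioles, again without overlap (difference on the log2 scale 1.37 ± 0.12, edgeR adjusted p = 1.8e-05). Both were higher in stem in air as well, by 0.86 ± 0.11 and 1.17 ± 0.14 on the log2 scale (edgeR, adjusted p = 0.00014 and 7.6e-05). Neither was called in a test against a bound of 2-fold (for GEMC01018687.1, edgeR adjusted p = 0.062). With 1 library left out the log2 difference of GEMC01052508.1 was 0.95 to 1.09.

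On the petiole side GEMC01034486.1 (957 bases) led, with 4698 ± 737 TPM in submerged petioles and 2059.8 ± 421 TPM in stems (SD, n = 6). Its petiole libraries ranged from 3885 to 5855 CPM and its stem libraries from 1528 to 2481 CPM (fitted difference on the log2 scale -1.31 ± 0.14, edgeR adjusted p = 4.7e-05). It was not called in the test against a bound of 2-fold (edgeR, adjusted p = 0.18). GEMC01012842.1 (246 bases) had 249 to 398 CPM in petioles against 100.2 to 131 CPM in stems, a log2 difference of -1.43 ± 0.13 (edgeR, adjusted p = 1.8e-05). With the bound of 2-fold it stayed called (edgeR, adjusted p = 0.034). In air its tissue difference was larger. Petioles held 640 to 1980 CPM and stems 148 to 253 CPM, a log2 difference of -2.94 ± 0.27 (edgeR, adjusted p = 1.2e-05). The narrowing under water, by 1.46 ± 0.29, passed the test of the difference between treatments (edgeR, adjusted p = 0.0086).

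Few contigs were present in one submerged tissue and nearly absent from the other. With at least 10 counts in each of 6 libraries of one tissue and at most 3 counts in each of 6 of the other, 15 contigs were found toward stem and 5 toward petiole, 0.0237% and 0.00789% of the 63384 contigs with any count under water. All 20 were called, which their selection on the same libraries made nearly certain, so it is no separate support. Without replicate 1 of petioles at 1 day there were 32 and 7. The 15 stem contigs had a median length of 426 bases. Contigs with a mean log2 CPM below 0 had a median of 418.5 bases when called toward stem and 532 bases when not called. The ratios of pooled counts below are scaled by the summed library totals of each tissue and carry exact 95% intervals for counting error only. GEMC01001262.1 (387 bases) had 78 to 146 counts in each stem library and 13 counts over the 6 petiole libraries together, a ratio of 46.7 (27.1 to 88.1). GEMC01012381.1 (224 bases) had 52 to 115 counts per stem library and 5 counts in all petiole libraries together, a ratio of 80.6 (34.3 to 249.5). Toward petiole, GEMC01031157.1 (1404 bases) had 129 to 425 counts in each petiole library, and 2 counts in 1 of the 6 stem libraries, a ratio of 767 (212 to 6340). GEMC01019354.1 (1325 bases) had 50 to 113 counts per petiole library and none in any stem library. Against a floor of 3 counts in each stem library it was at least 30.7-fold higher in petiole. In air, GEMC01031157.1 was found at 16.8 to 28.5 CPM in petioles and at 0 to 1.43 CPM in stems. GEMC01019354.1 held 0 to 4.21 CPM in air petioles and 0 CPM in air stems. Both stem contigs were higher in stem in air too. The log2 difference there was 7.43 ± 0.44 for GEMC01001262.1 and 6.58 ± 0.76 for GEMC01012381.1 (SE; edgeR, adjusted p = 8e-07 and 7.1e-05).

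The tissue differences of the days were similar in sign. At 1 day 1997 contigs were higher in stem (3.87%) and 3345 in petiole (6.48%), together 10.3%. At 2 days the numbers were 3975 (7.7%) and 5189 (10.1%), together 17.8%. Day 1 and day 2 used different libraries. Among the day 1 calls, 98.2% kept their sign on day 2 and 74.8% were also called the same way. Among the day 2 calls, 96.7% kept their sign on day 1 and 43.6% were also called the same way. Both days called 1340 contigs toward stem and 2654 toward petiole, and 6 contigs were called in opposite directions. Across the 18021 abundant contigs (not independent of each other), the log2 differences of the days had a Pearson r of 0.819. Their median absolute size was 0.29 at 1 day and 0.35 at 2 days.

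No contig passed the test of a change in the tissue difference between the days. edgeR called 0 contigs, with a smallest adjusted p of 0.31 and with 2753 contigs (5.33%) at an unadjusted p under 0.05. limma-voom also called 0, and DESeq2 called 135, 83 with a difference more toward stem at 2 days and 52 more toward petiole. Without replicate 3 of petioles at 1 day edgeR called 24, and without replicate 2 of petioles or of stems at 2 days it called 1. The fewer calls at 1 day are thus not shown to be a weaker difference. They depended on single libraries, since leaving out replicate 1 of petioles at 1 day gave 4377 contigs higher in stem and 4568 in petiole on that day. The median SE of the change between days was 0.23 on the log2 scale over the abundant contigs, so modest changes were within the error. For GEMC01015786.1 the change from 1 day to 2 days was -0.28 ± 0.41 and for GEMC01006994.1 it was -0.28 ± 0.33 (SE). The pair of contigs highest in stem had larger estimates with larger errors, 1.5 ± 0.87 for GEMC01049855.1 and 1.61 ± 0.91 for GEMC01049857.1 (edgeR, adjusted p = 0.92 for both).

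**Figure D4:**
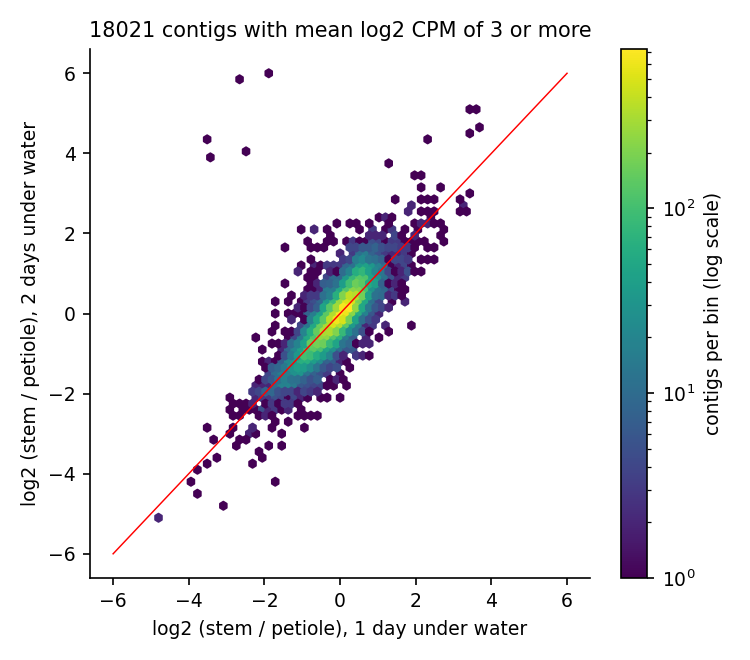
Fitted log2 difference of stem over petiole at 1 day (horizontal) and at 2 days (vertical) for 18021 contigs, drawn as bins coloured by the number of contigs on a log scale, with a line of equality and 1 value past 6 drawn at 6. Most bins follow the line (Pearson r 0.819). The isolated bins at the upper left include 4 contigs with fitted values toward petiole at 1 day and toward stem at 2 days. Their change between days was not called (edgeR, adjusted p = 0.89). In each of the 4, petiole replicate 3 at 1 day lay below the stem libraries of that day.

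Contigs called under water mostly had the same sign in air, in libraries that share no sample with those under water, but fewer of them were also called there. In air 4071 contigs were higher in stem (7.89%) and 5260 higher in petiole (10.2%), together 18.1% of the same 51623 contigs. Of the contigs called toward stem under water, 38.0% were also called toward stem in air, which was 60.9% of the air list. Toward petiole these shares were 46.3% and 68.9%. In sign alone the match was closer, with 90.2% of the stem calls and 88.6% of the petiole calls under water having the same sign in air. Of the 3001 contigs at least 2-fold higher in submerged petioles, 2668 were on that side in air and 1487 were called there. Of the 1850 at least 2-fold higher in submerged stems, 1639 were on that side in air and 900 were called. Across the 18021 abundant contigs the log2 differences under water and in air had a Pearson r of 0.722. Their median absolute size was 0.31 under water and 0.24 in air, and their SD 0.57 and 0.54, while the biological coefficient of variation was 0.368 and 0.362. Whether the differences under water were larger on the whole was not tested. Scaling weighed more in air, where library totals alone gave 10200 contigs toward stem and 3295 toward petiole.

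Submergence shifted the tissue difference of 1292 contigs, 2.4% of the 53919 tested over all 24 libraries. The shift was toward stem for 551 (1.02%) and toward petiole for 741 (1.37%). It reached 2-fold for 282 (0.523%) and 466 (0.864%) of them. Which side had more shifts depended on scaling, because DESeq2 size factors gave 665 toward stem and 564 toward petiole, and library totals alone gave 370 and 1182. Without replicate 1 of petioles at 1 day 2315 contigs were called, 1167 toward stem and 1148 toward petiole, and DESeq2 called 2737.

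These shifts came in several forms. Among the 741 contigs shifted toward petiole, 168 had been higher in petiole in air by group means and were more so under water. For 473 the order of the tissues differed between air and water, and for 100 a stem excess kept its side but was smaller under water. Among the 551 shifted toward stem, the order differed for 227, the difference kept its side and was larger under water for 148, and it kept its side and was smaller for 176. There were 98 contigs called in opposite directions in the separate comparisons, 65 higher in petiole under water and in stem in air, and 33 the other way. All 98 passed the test of the shift. That test takes the difference of the same comparisons in the same libraries, so this followed nearly from their selection.

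In group means, petioles accounted for the larger part of most shifts. Of the 741 contigs shifted toward petiole, 546 (73.7%) had the larger difference between water and air in petioles, which for a shift of this direction means a higher level under water, and for 195 it lay in stems, with a lower level under water. Of the 551 shifted toward stem, 423 (76.8%) had the larger difference in petioles (lower under water) and 128 in stems (higher under water). Over all contigs tested the petiole had the larger difference for 62.9%, and petiole replicates varied more, so these shares describe group means and their part in the result was not tested.

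Where mean log2 CPM over the 24 libraries was 3 or more, the largest called shifts toward stem were those of GEMC01064411.1 and GEMC01064667.1. GEMC01064411.1 (3245 bases) had 25.9, 36.3 and 23.2 CPM in submerged stems at 1 day, and 42.03, 44.7 and 47.9 CPM a day later. Petioles under water held 2.74, 1.58 and 2.36 CPM, then 2.68, 1.34 and 0.548 CPM. In air stems held 53.4 to 83.5 CPM and petioles 18.2 to 35.1 CPM. Stems were thus above petioles in both conditions, by a log2 difference of 4.22 ± 0.33 under water and 1.39 ± 0.14 in air (SE; edgeR, adjusted p = 6.8e-06 and 2.2e-05), and the shift was 2.80 ± 0.31 (edgeR, adjusted p = 4.5e-05).

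GEMC01064667.1 (1321 bases) differed between the tissues in air and was not called under water. In air petioles held 127 to 157 CPM and stems 19.9 to 29.6 CPM, a log2 difference of -2.46 ± 0.10 (edgeR, adjusted p = 1.3e-07). Under water petioles held 30.5 to 44.5 CPM. Stems held 36.3, 182 and 27.5 CPM at 1 day and 27.4, 28.1 and 24.02 CPM at 2 days, so the tissues overlapped and no difference was called (log2 difference 0.24 ± 0.46, edgeR adjusted p = 0.75). The overlap came from 1 day. At 2 days each stem library lay below each petiole library, at 36.3 to 44.5 CPM. The log2 difference of that day was -0.60 ± 0.55 (edgeR, adjusted p = 0.5), with a spread estimated over both days, including the library at 182 CPM. The shift was 2.64 ± 0.43 (edgeR, adjusted p = 0.0023). Without the stem library at 182 CPM it was 1.96 (edgeR, adjusted p = 4.3e-06).

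Toward petiole the same rule named the shifts of GEMC01015786.1 and GEMC01061347.1, since GEMC01006994.1 lay below that level over the 24 libraries. For GEMC01015786.1 the tissues in air were close, at 5.80 to 9.17 CPM in petioles and 4.22 to 5.90 CPM in stems (fitted difference on the log2 scale -0.56 ± 0.15, edgeR adjusted p = 0.018). The shift was -4.46 ± 0.27 (edgeR, adjusted p = 2.6e-08). GEMC01061347.1 (2780 bases) was less certain. At 1 day under water it had 0 CPM in the 3 stem libraries and 0.58, 8.19 and 1.14 CPM in the petiole libraries, while at 2 days stems held 18.5, 8.12 and 10.2 CPM and petioles 16.0, 14.7 and 23.5 CPM. In air stems held 29.6 to 43.4 CPM and petioles 39.5 to 62.5 CPM. Its fitted shift of -4.61 ± 1.05 (edgeR, adjusted p = 0.028) rests on the 3 stem libraries at 0 and is no measure of a fold. The call ended under limma-voom (adjusted p = 0.24) and without any 1 of the 3 stem libraries at 1 day (edgeR, adjusted p = 0.052 to 0.066) or without replicate 3 of stems at 2 days (0.05).

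**Figure D5:**
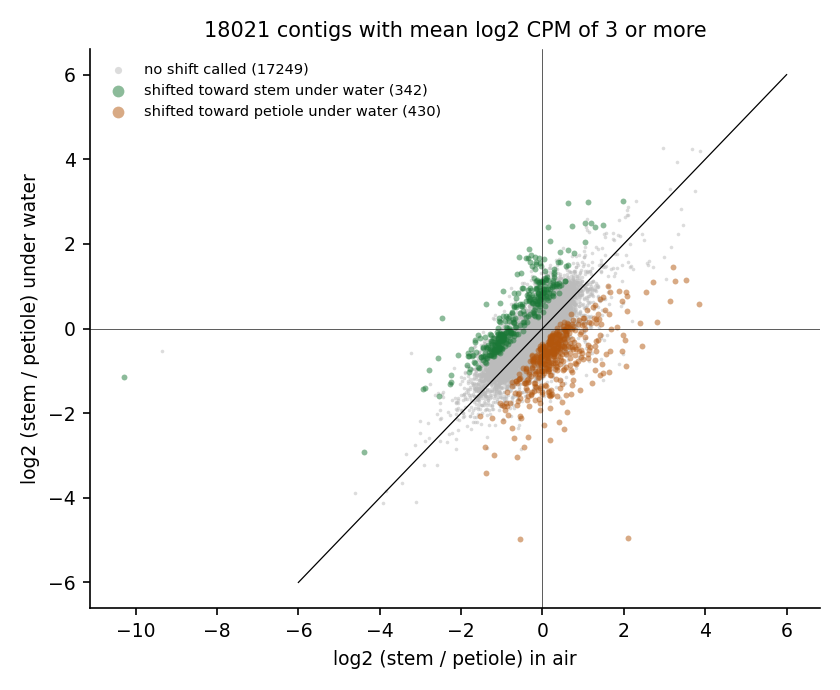
Fitted log2 difference of stem over petiole in air (horizontal) and under water (vertical) for 18021 contigs with mean log2 CPM of 3 or more under water, with the line of equality. Coloured points passed the test of a shift between air and water, 342 toward stem and 430 toward petiole, and the 2 lowest points are GEMC01015786.1 and GEMC01006994.1.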

How the data were processed

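RNA was sequenced from stems and petioles of watercress. Per the labels' protocols, non-strand-specific BrAD-seq libraries of 200 to 500 bp fragments were read from both ends for 100 bp; kallisto, edgeR and limma are named in the submitters' processing notes, with versions, transcriptome and read filters not given in the sources used here. The deposited tables give estimated counts per contig (not normalised) and TPM, which the authors' files scale to a fixed total after adjusting for effective length; contig length and effective length in bases are other deposited columns. Reads of overlapping antisense transcripts cannot be told apart.

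Estimated counts were rounded to whole numbers and filtered with filterByExpr by group (minimum count 10, minimum total 15). TMM scaling and edgeR 4.0.16 (estimateDisp, glmQLFit, glmQLFTest; R 4.3.3) were used. The main comparison was fitted to the 12 libraries under water with tissue and day; single days and their difference with 1 mean per group; the comparison in air to its 12 libraries; and the shift between air and water, as the mean of both days, to all 24. Biological coefficients of variation were 0.362 to 0.374. P-values are two-sided and SE were derived from the F statistic. CPM values of single libraries use totals scaled over all 24 libraries. Alternatives used limma 3.58.1 (voom), DESeq2 1.42.0, other scalings and filters, a replicate block, a 2-fold bound and the omission of each library. In simulated data of 6000 contigs with known differences, the test of stem against petiole found 69% of 2-fold and 100% of 4-fold differences, the test of a change between days 6% and 69%, and the test of the shift between air and water 29% and 99%. The simulated contigs left out those with low mean counts, and few of them were changed. All shared a single coefficient of variation, set below that of the data. The shares found are therefore not the power of the tests in these data.

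Named contigs were, where mean log2 CPM was 3 or more, the 2 largest called differences in each direction for stem against petiole under water (tissues not overlapping) and for the shift; the 2 of highest TPM among called contigs at least 2-fold apart; and the 2 of highest median count among those of 1 tissue. The members, lists and tests were chosen with earlier results of these data known. Gene lists and tissue markers were not used, since identifiers name no gene. A count of 3 was 0.0613 to 0.15 CPM under water. Libraries carry no molecular identifiers, so intervals and floors cover counting error only. The labels call the samples replicates without saying that they were grown separately, so p-values measure the spread between these samples, which may be partly technical.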

Additional observations from a re-analysis of the deposited data

Results flagged for a closer look

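The difference between stem and petiole was not the same in air and under water for 1292 contigs, by the test of that change (edgeR over 24 libraries, adjusted p under 0.05). These were 2.4% of the 53919 contigs tested. Among the contigs named in the text, 6 were in this set. Of these, GEMC01064411.1, GEMC01064667.1, GEMC01061347.1 and GEMC01015786.1 were named by their called shift, so their place in the set was fixed by the choice. GEMC01006994.1 was named by its difference under water, which is part of the shift. The log2 change of the difference between stem and petiole, under water minus in air, was -7.10 for GEMC01006994.1 and -4.46 for GEMC01015786.1. It was 2.80 for GEMC01064411.1, 2.64 for GEMC01064667.1 and 1.46 for GEMC01012842.1. The fitted -4.61 for GEMC01061347.1 rests on 3 stem libraries at 0, is no measure of a fold, and was not called by limma-voom (adjusted p = 0.24). Single libraries that stood apart are described above, but groups of 3 libraries were too small for a formal test of single samples against their group.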

How the results depend on the processing

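Of 380 refits of named contigs, 370 kept direction and side of the threshold, 10 lost the call and none turned sign. Of the losses 5 came with the bound of 2-fold. Counts of calls were within 1.5 times the reported number in 138 of 163 refits. The bound of 2-fold left 946 contigs for stem against petiole under water, 295 at 1 day, 578 at 2 days, 827 in air and 72 for the shift. DESeq2 called 8273 contigs at 1 day, 2737 for the shift and 135 for the change between days. Requiring 20 counts left 10 contigs of 1 tissue. With 1 library left out, the count for stem against petiole was 11793 to 17906, at 1 day 2769 to 8945, at 2 days 4981 to 11806, for the change between days 0 to 24, in air 7400 to 10744 and for the shift 867 to 2315. Without 1 library the tissues did not overlap for 6070 to 10585 contigs, and 22 to 39 contigs were of 1 tissue. The highest count came without replicate 1 of petioles at 1 day, except for the change between days (24, without replicate 3 of petioles at 1 day) and in air. At 1 day, omission of each library of that day moved the count by over 1.5 times: 8945 and 2769 and 3403 without petiole replicates 1, 2 and 3, and 3203, 3316 and 2835 without stem replicates 1, 2 and 3. At 2 days it did so for petiole replicates 1 (6042) and 2 (5396) and stem replicates 2 (5336) and 3 (4981). The cause was not tested. For the split of sides, library totals alone gave 61.5% toward stem at 2 days against 43.4%, 75.6% in air against 43.6% and 23.8% for the shift against 42.6%. They moved the median log2 difference of all contigs to 0.09 under water, 0.16 at 2 days, 0.26 in air and -0.12 for the shift. The replicate numbers of stem and petiole are not stated to mark shared plants. Deviations of same-numbered libraries correlated at -0.017, 0.039 and 0.029 at 1 day and 0.22, 0.063 and 0.24 at 2 days. Unlike numbers gave -0.072 to 0.045 at 1 day and -0.247 to 0.081 at 2 days. At 2 days each stem library correlated best with the petiole library of its own number. At 1 day stem replicates 1 and 2 did not. The main fits did not take the numbers as pairs, and whether plants were shared was not tested. With the replicate block 13061 contigs were called for stem against petiole, 3633 at 1 day, 6689 at 2 days, 0 for the change between days, 8040 in air and 890 for the shift.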

Other observations

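In the plot of the days 4 abundant contigs stood apart by their fitted values, higher in petiole by at least 2 log2 units at 1 day under water and higher in stem by as much at 2 days. They were noticed after their values were seen. None had the reverse order. GEMC01034916.1 (219 bases) had 420, 145 and 2.09 CPM in submerged petioles at 1 day, and 1.29, 1.07 and 1.19 CPM a day later. Stems held 18.8, 11.3 and 20.2 CPM and then 6.62, 47.8 and 21.5 CPM. In air the petiole libraries held 384, 307 and 6.71 CPM at 1 day and 361, 97.1 and 401 CPM at 2 days. Replicate 3 of petioles at 1 day was thus far below the other replicates both in air and under water, and all petioles at 2 days under water were low. The change of the tissue difference between days was 7.91 ± 1.83 (SE), and it did not pass the test (edgeR, adjusted p = 0.89).

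The other contigs of this kind followed the same libraries. GEMC01034917.1 (710 bases) held 269, 109 and 1.26 CPM in petioles at 1 day under water and at most 1.35 CPM at 2 days. GEMC01007322.1 (477 bases) held 191, 83.7 and 0.799 CPM and then at most 0.662 CPM. GEMC01071849.1 (510 bases) held 273, 135 and 3.81 CPM and then at most 4.18 CPM. Over the 24 libraries, 2 other abundant contigs had a Pearson r of at least 0.9 with the mean profile of these 4, a description without a test.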
